A study of Mus musculus with 6 samples.

Results

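Small leucine-rich proteoglycan genes were followed in the hearts of mice infused with angiotensin II (Ang II), which raises blood pressure and drives cardiac hypertrophy and fibrosis. The 8 genes Bgn, Dcn, Lum, Fmod, Aspn, Ogn, Prelp and Omd were taken by gene symbol from a table of 22556 genes, and all 8 were listed there. The animals were wild-type mice, and those of the 7 and 28 day groups received 1000 ng Ang II per kg per min under the skin from osmotic minipumps. The 3 groups, of 2 RNA sequencing libraries each, were controls listed at 0 days of infusion, hearts at 7 days and hearts at 28 days. No controls were listed at 7 or 28 days, so age and time since the pumps were placed cannot be told apart from Ang II. The labels give neither the strain, age or sex of the mice nor what the controls received, nor do they say whether different libraries stem from different mice, so the p-values rest on the spread between libraries alone, which may be technical. The tissue label is heart, and no chamber is named.

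Small leucine-rich proteoglycans are secreted matrix proteins with a core of leucine-rich repeats that bind collagen fibrils and set how thick and how regular the fibrils become. Class I holds decorin, biglycan and asporin, class II holds lumican, fibromodulin, PRELP and osteomodulin, and osteoglycin belongs to class III. Several members also bind growth factors such as TGF-beta, and soluble biglycan can signal through Toll-like receptors. In the heart they are made mainly by fibroblasts, the cells that also make collagen.

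Values are RPKM, in which reads are divided by the length of the transcript and the size of the library, so that levels can be compared between genes. Relative to control replicate 1, depth estimated from low RPKM values was 0.89 to 1.17 in the other libraries. The controls differed from each other in atrial genes, with 320.0 RPKM summed over Myl7, Myl4, Sln and Nppa in replicate 1 and 3017 in replicate 2. This sum was 2038 to 2227 RPKM in the 7 day libraries and 2415 to 3427 RPKM in the 28 day libraries. Nppa, which is also a hypertrophy marker, made up most of it there, and Myl7 alone was at 52.5 and 646 RPKM in the controls, 41.2 and 66.2 at 7 days, and 341 and 182 at 28 days. Cardiomyocyte markers were abundant in every library, with 8 genes summing to 35505 to 36351 RPKM in the controls, 33684 to 41771 at 7 days and 42340 to 45441 at 28 days. A gene was tested when its mean RPKM over the 6 libraries was at least 1, which 7 of the 8 members and 11096 genes in all reached. Omd was just outside, with a mean of 0.981 RPKM, and Fmod was the lowest member inside, at 2.87 RPKM. Changes are given on the scale of log2(RPKM + 0.5), which understates those of genes at a low level such as Fmod, and a gene was called at a limma adjusted p under 0.05 over all tested genes.

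Decorin (Dcn) was the most abundant member in all 6 libraries and biglycan (Bgn) came next. In controls the mean level was 315 RPKM for Dcn, 60.4 RPKM for Bgn, 53.7 RPKM for Ogn, 34.0 RPKM for Lum, 14.3 RPKM for Aspn and 10.5 RPKM for Prelp. Fmod and Omd lay at 1.61 and 1.22 RPKM in controls. The libraries of neighbours in this order did not overlap in the controls, although the gap between Fmod and Omd was small. The order differed between the times in 1 place. Lum stood below Ogn in both controls and above it in all 4 Ang II libraries, but at 28 days the ranges of Lum and Ogn overlapped.

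**Figure D1:**
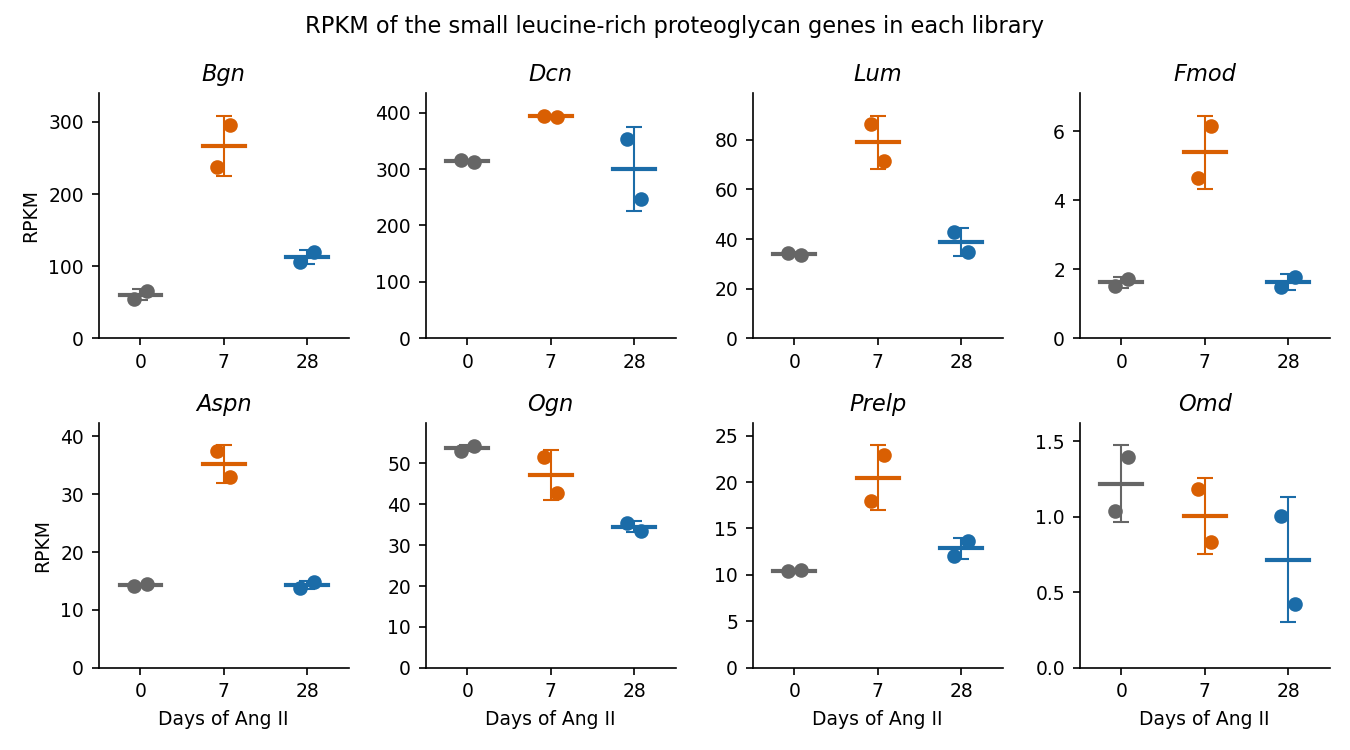
RPKM (vertical axis, from 0) of each small leucine-rich proteoglycan gene at 0, 7 and 28 days of Ang II. Points are the 2 libraries of a group, horizontal lines their mean and bars the SD; Bgn, Lum, Fmod, Aspn and Prelp are highest in the 7 day libraries, whereas Ogn is lowest in the 28 day libraries, at 33.6 and 35.5 RPKM.

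After 7 days of Ang II, 5 of the 7 tested members were higher than in controls and none was lower. The 5 were Bgn, Fmod, Aspn, Lum and Prelp, while Dcn and Ogn did not pass. In bulk tissue such as this, more cells of a type and more RNA per cell cannot be told apart. Of all tested genes 13.2% were called higher and 2.27% lower, 15.4% in all. The median log2 change of the tested members was 1.20, against 0.14 for all tested genes. With median ratio scaling this all-gene median was -0.02, and with quantile normalization -0.04. Higher genes made up 85.3% of all calls without rescaling, 61.2% with median ratio scaling and 57.1% with quantile normalization. The 5 members were called under both scalings.

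Among class I members, Bgn had the largest change. Its level was 237 and 296 RPKM in the 7 day libraries, against 55.0 and 65.9 RPKM in the controls, which do not overlap. The ratio of means was 4.41 and the log2 fold change 2.13 (SE 0.15; limma adjusted p = 0.000483, n = 2 each). Aspn encodes asporin, a class I member that carries a stretch of aspartates and usually no glycosaminoglycan chain. Aspn stood at 37.5 and 32.9 RPKM in the 7 day libraries, against 14.1 and 14.4 RPKM in the controls. Both 7 day libraries were above both controls, with a log2 fold change of 1.27 (SE 0.11; limma adjusted p = 0.000979). Dcn, which encodes the decorin core protein, stood at 394 and 392 RPKM in the 7 day libraries, against 316 and 313 RPKM in the controls. Its 7 day libraries also lay above the controls, yet the test was not passed, at a log2 change of 0.32 (95% interval -0.06 to 0.70; limma adjusted p = 0.222). The fit also used the 28 day libraries, where Dcn stood at 353 and 247 RPKM. With only the 2 groups compared, Dcn was still not called (limma adjusted p = 0.0546).

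The tested members of class II were all called higher at 7 days. Lum encodes lumican, which regulates fibril diameter and carries keratan sulfate in the cornea. Its level was 86.6 and 71.4 RPKM in the 7 day libraries, against 34.5 and 33.6 RPKM in the controls, without overlap (log2 fold change 1.20, SE 0.14; limma adjusted p = 0.00297). Fmod encodes fibromodulin, which binds type I collagen at a site shared with lumican. Fmod was at 4.63 and 6.13 RPKM in the 7 day libraries, against 1.50 and 1.73 RPKM in the controls. The ratio of means was 3.33, and the log2 fold change of 1.47 was smaller because of the added 0.5 (SE 0.17; limma adjusted p = 0.00312). Prelp encodes a basic member that links basement membranes to connective tissue. It was at 18.0 and 22.9 RPKM in the 7 day libraries, against 10.4 and 10.5 RPKM in the controls, a log2 fold change of 0.92 (SE 0.14; limma adjusted p = 0.00685). The libraries of Prelp did not overlap, but without control replicate 1 it was no longer called (limma adjusted p = 0.0569). Across the 6 fits without 1 library, its adjusted p ranged from 0.00579 to 0.0569.

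The remaining members, Ogn and Omd, were not higher in the 7 day libraries. Ogn encodes osteoglycin, also called mimecan. It was at 51.6 and 42.8 RPKM in the 7 day libraries, against 53.1 and 54.2 RPKM in the controls. Both 7 day libraries lay below the controls, and the test was not passed, at a log2 change of -0.19 (95% interval -0.46 to 0.08; limma adjusted p = 0.301). Omd encodes osteomodulin, best known from bone. It was at 1.18 and 0.83 RPKM in the 7 day libraries, against 1.04 and 1.40 RPKM in the controls, and the groups overlapped. Without the filter on low values, Omd had a log2 change of -0.19 at 7 days (limma adjusted p = 0.727) and -0.53 at 28 days (limma adjusted p = 0.415).

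After 28 days of Ang II, 1 member was higher than in controls and 1 was lower. Bgn was higher and Ogn lower, and the other 5 tested members did not pass. Of all tested genes 2.87% were called higher and 1.54% lower, 4.41% in all, and the median log2 change was 0.01 both for the members and for all tested genes. Bgn was at 106 and 119 RPKM in the 28 day libraries, against 55.0 and 65.9 RPKM in the controls, a ratio of means of 1.86. The log2 fold change was 0.90 (SE 0.15; limma adjusted p = 0.0244) and the libraries did not overlap. Ogn was at 35.5 and 33.6 RPKM in the 28 day libraries, against 53.1 and 54.2 RPKM in the controls. It fell by 0.63 on the log2 scale (SE 0.12; limma adjusted p = 0.0324), and both 28 day libraries lay below all 4 others. Both calls at 28 days depended on single libraries. Leaving out control replicate 1, control replicate 2 or 28 day replicate 2 ended the call of Bgn, and leaving out any control or 28 day library ended that of Ogn. Quantile normalization also ended the call of Bgn (log2 change 0.77; limma adjusted p = 0.0565), and both calls were lost when genes at low levels were kept in the fit. In the same 28 day libraries 3 of 8 cardiomyocyte markers (Actn2, Actc1 and Mybpc3) were called higher than in the controls. Each of these calls was lost without either control, and those of Actc1 and Mybpc3 also without either 28 day library. The part of these markers in the change of Ogn was not tested. In the fits without 1 library the log2 change of Bgn stayed between 0.77 and 1.03, with adjusted p from 0.0342 to 0.213. That of Ogn stayed between -0.67 and -0.59, with adjusted p from 0.0359 to 0.228.

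The other tested members had smaller changes at 28 days. Aspn was at 13.8 and 14.8 RPKM in the 28 day libraries, against 14.1 and 14.4 RPKM in the controls. Its log2 change of -0.00 had a 95% interval of -0.26 to 0.25. Fmod was at 1.47 and 1.78 RPKM in the 28 day libraries, against 1.50 and 1.73 RPKM in the controls, with a log2 change of 0.01 (95% interval -0.40 to 0.41) that turned to -0.01 after median ratio scaling. In Aspn and Fmod the groups overlapped. Lum and Prelp lay above both controls in both 28 day libraries without passing. Lum, at 42.9 and 35.0 RPKM in the 28 day libraries, had a log2 change of 0.18 (95% interval -0.14 to 0.51). Prelp, at 12.1 and 13.6 RPKM, had one of 0.28 (95% interval -0.04 to 0.61). Among the tested members Dcn differed most between its own replicates, at 353 and 247 RPKM in the 28 day libraries. These span the controls (log2 change -0.09, 95% interval -0.47 to 0.29). Omd was at 1.01 and 0.425 RPKM in the 28 day libraries, both below the controls.

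**Figure D2:**
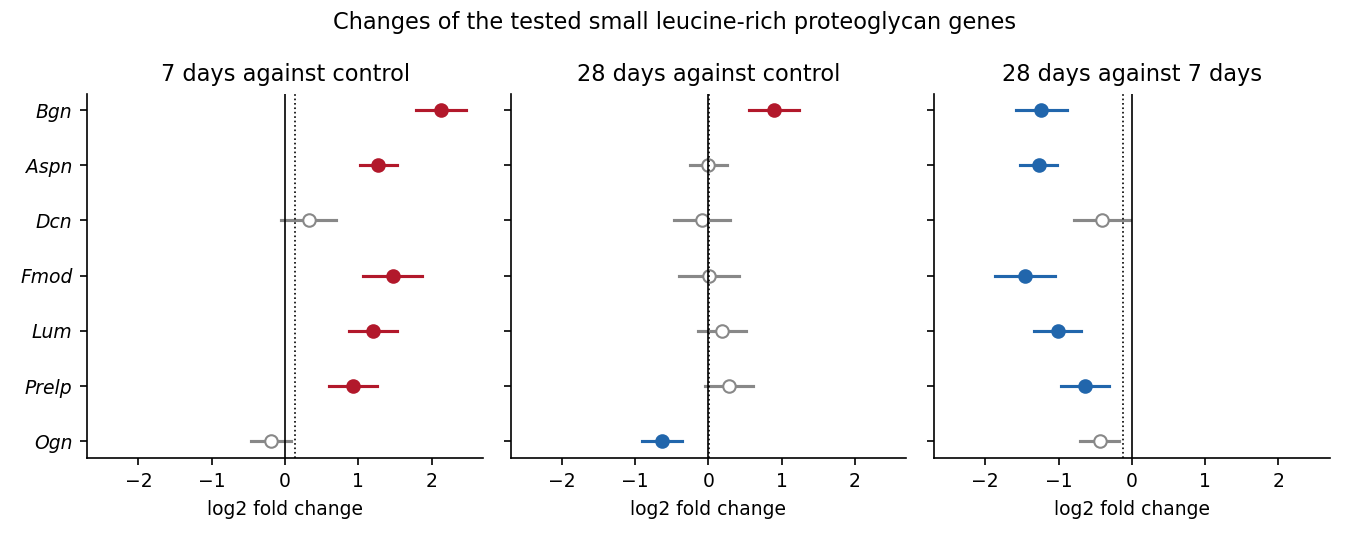
Log2 fold changes (horizontal axis) of the 7 tested members in the 3 comparisons, with 95% intervals from limma; red marks genes called higher, blue genes called lower, and open grey circles genes that did not pass. The dotted line is the median of all tested genes; 5 members are called higher at 7 days, and the same 5 are called lower at 28 days against 7 days.

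The comparison of 28 with 7 days tests whether the changes at the 2 times differed, and it uses the same 28 and 7 day libraries as the comparisons with the controls. Bgn, Fmod, Aspn, Lum and Prelp, 5 of the 7 tested members, were lower at 28 days than at 7 days, and none was higher. Of all tested genes 4.26% were called lower and 0.406% higher, 4.67% in all. The median log2 change of the members was -1.01, against -0.12 for all tested genes. Higher genes made up 8.69% of all calls without rescaling, 23.2% with median ratio scaling and 20.8% with quantile normalization, and under each rescaling 4 members were called lower, without Prelp. Fmod fell by 1.46 on the log2 scale (SE 0.17; limma adjusted p = 0.00857), Aspn by 1.27 (SE 0.11; limma adjusted p = 0.00337) and Bgn by 1.23 (SE 0.15; limma adjusted p = 0.00858). Lum fell by 1.01 (SE 0.14; limma adjusted p = 0.0128) and Prelp by 0.64 (SE 0.14; limma adjusted p = 0.0488). Both 28 day libraries were below both 7 day libraries in all 7 tested members, called or not, so this does not set the 5 apart. The share of all tested genes with such a separation is not given here. Of the 5, Aspn kept its call without any single library.

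The call of Prelp between 28 and 7 days was the least secure. It was lost in each of the 6 fits without 1 library, with adjusted p from 0.0502 to 0.22, and with the replicate number as a block (limma adjusted p = 0.0504). Without 7 day replicate 2, Aspn was the 1 member still called, and without 7 day replicate 1 the called members numbered 3. Bgn then had a log2 change of -1.07 without 7 day replicate 2 (limma adjusted p = 0.0735), Fmod one of -1.27 (limma adjusted p = 0.0821) and Lum one of -1.15 (limma adjusted p = 0.0685). Lum also lost its call without 7 day replicate 1, at -0.87 (limma adjusted p = 0.0668). Dcn was lower in both 28 day libraries than in both 7 day libraries, but was not called (log2 change -0.41; limma adjusted p = 0.197). Leaving out 28 day replicate 1 gave a called change of -0.67 (limma adjusted p = 0.0408), and leaving out 28 day replicate 2 gave -0.15. Ogn was also lower in both 28 day libraries and was not called (log2 change -0.44; limma adjusted p = 0.0824).

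The make-up of the family's RNA differed between the times. Summed over the 8 genes, the level was 490.5 ± 6.50 RPKM in controls, 848 ± 24.9 at 7 days and 516 ± 70.8 at 28 days (mean ± SD, n = 2 each). Dcn made up 65.1% and 63.3% of the sum in the controls, 47.4% and 45.3% at 7 days, and 62.4% and 53.1% at 28 days. Bgn made up 11.3% and 13.3% in the controls, 28.5% and 34.2% at 7 days, and 18.7% and 25.6% at 28 days. Neither share overlapped between the controls and the 7 day libraries. The Dcn to Bgn ratio was 5.75 and 4.76 in the controls, 1.66 and 1.32 at 7 days, and 3.33 and 2.08 at 28 days. Ogn made up 10.9% in both controls, 6.21% and 4.95% at 7 days, and 6.26% and 7.20% at 28 days. These shares are a description, since an exact permutation test of 2 against 2 libraries cannot give a p below 0.333.

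**Figure D3:**
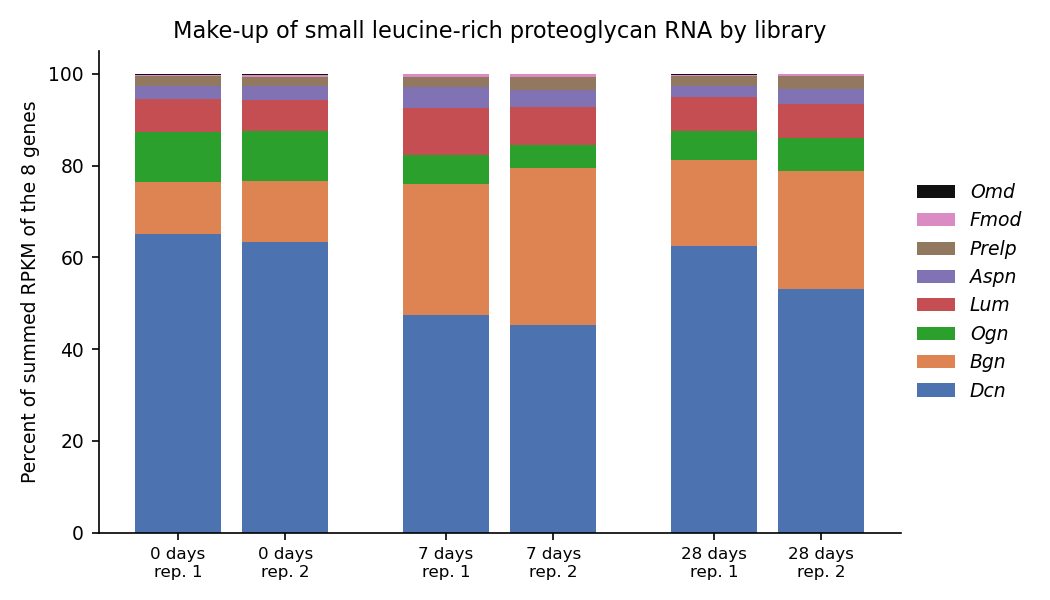
Share of each member in the summed RPKM of the 8 genes (vertical axis, percent), with 1 bar for each library at 0, 7 and 28 days of Ang II. Dcn takes 63.3% or more of the control bars and 47.4% or less of the 7 day bars, where Bgn takes 28.5% and 34.2%.

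Set against fibrillar collagen, the family was less abundant at 7 days. Col1a1, Col1a2 and Col3a1, the chains of type I and type III collagen, together had 345 and 411 RPKM in the 7 day libraries, against 65.4 and 70.6 RPKM in the controls. For every 100 RPKM of these 3 collagen genes the members summed to 241 and 211 RPKM in the 7 day libraries, against 743 and 701 RPKM in the controls. For Dcn alone this value was 114 and 95.5 at 7 days, against 484 and 444 in the controls. For Bgn it was 68.7 and 72.1 at 7 days, against 84.1 and 93.3 in the controls. In the 28 day libraries it was 141 and 116 for Bgn, above both controls, while for Dcn it was 470 and 240, which spread over more than the range of the controls.

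Members of the same genome cluster differed in their calls at 7 days in 2 of 3 clusters, and the differences between genes were not tested. By gene order in RefSeq on GRCm38.p6, a later build than the mm8 and mm9 listed by the submitters, Dcn and Lum are adjacent on chromosome 10, followed by Kera and Epyc. Of this pair Lum was called at 7 days and Dcn was not, and Kera, which encodes the corneal keratocan, stayed at or under 0.0401 RPKM. On chromosome 13 the order is Ecm2, Aspn, Omd, Ogn and Nol8. Aspn was called higher at 7 days, while its neighbour Ecm2, a matrix gene with leucine-rich repeats, was not (log2 change 0.05; limma adjusted p = 0.791). Ogn, on the far side of Omd, had a log2 change of -0.19. The Aspn to Ogn ratio was 0.727 and 0.768 at 7 days, against 0.266 and 0.266 in the controls. At 28 days the Aspn to Ogn ratio was 0.388 and 0.440. On chromosome 1 Prelp and Fmod are adjacent and were both called higher at 7 days, and Optc, on the other side of Prelp, stayed at or under 0.177 RPKM. Btg2, which follows Fmod, had a log2 change of 0.88 with a wide spread and was not called (limma adjusted p = 0.177). Cenpp overlaps Aspn, Omd and Ogn in this annotation, and the sources used here do not say whether counting used the strand. Cenpp itself lay between 0.843 and 2.69 RPKM, close to the level of Omd and well under those of Aspn and Ogn.

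**Figure D4:**
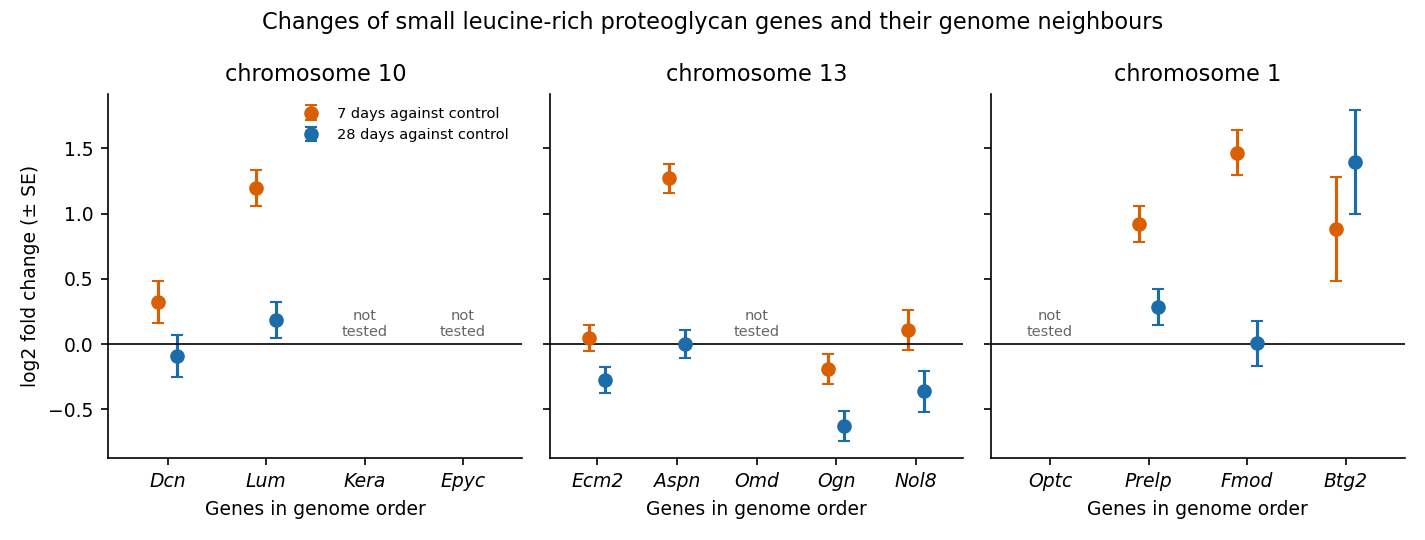
Log2 fold changes (vertical axis, with SE from limma) at 7 and 28 days against control for genes in genome order on chromosomes 10, 13 and 1; genes whose mean RPKM was under 1 are marked as not tested. Lum and Aspn lie at 1.20 and 1.27 at 7 days beside Dcn at 0.32 and Ecm2 at 0.05, whereas the adjacent Prelp and Fmod lie at 0.92 and 1.47.

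Upstream sequences from RefSeq matched 6 of the 8 members, without Dcn and Lum. Those of Aspn and Ogn are shown because these genes lie in 1 cluster and differed in their changes, and those of Fmod and Prelp because they are adjacent and were both called. Each is the 250 bases before the gene start on GRCm38.p6, written on the strand of the gene. Capitals mark matches on either strand to 5 short motifs. The TATA box was searched as TATAAA. The AP-1 motif was searched as TGANTCA and the SMAD motif as CAGAC. The motif of TEAD factors was searched as GGAATG, and that of RUNX factors as TGTGGT. The Aspn window is chr13:49544193-49544442 on the plus strand, that of Ogn chr13:49607765-49608014 on the plus strand, that of Fmod chr1:134037004-134037253 on the plus strand and that of Prelp chr1:133921402-133921651 on the minus strand.
Aspn: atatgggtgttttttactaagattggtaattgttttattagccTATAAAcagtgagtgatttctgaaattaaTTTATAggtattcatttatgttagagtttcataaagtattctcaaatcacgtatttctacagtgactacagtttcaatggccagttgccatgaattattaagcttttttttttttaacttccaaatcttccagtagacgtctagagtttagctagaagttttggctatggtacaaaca
Ogn: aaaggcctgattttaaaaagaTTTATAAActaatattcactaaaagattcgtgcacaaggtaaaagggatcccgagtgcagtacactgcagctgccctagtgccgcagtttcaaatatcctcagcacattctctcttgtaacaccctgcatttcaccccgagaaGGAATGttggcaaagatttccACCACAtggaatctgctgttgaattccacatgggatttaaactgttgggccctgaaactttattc
Fmod: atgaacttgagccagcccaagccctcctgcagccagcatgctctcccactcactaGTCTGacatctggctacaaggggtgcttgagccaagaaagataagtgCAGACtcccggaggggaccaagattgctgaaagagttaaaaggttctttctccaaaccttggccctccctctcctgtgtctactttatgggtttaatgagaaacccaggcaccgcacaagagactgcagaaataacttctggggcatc
Prelp: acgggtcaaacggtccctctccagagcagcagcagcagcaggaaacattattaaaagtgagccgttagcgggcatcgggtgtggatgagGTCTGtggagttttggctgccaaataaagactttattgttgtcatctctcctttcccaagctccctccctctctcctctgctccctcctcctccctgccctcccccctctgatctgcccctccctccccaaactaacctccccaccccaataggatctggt

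The adjacent pair that was called together shared 1 of the searched motifs. CAGAC was found in the windows of Fmod and Prelp and in no other member's window, and 42.2% of 32851 RefSeq windows of this length hold it. TATAAA was found in those of Aspn and Ogn, and in 12.4% of all windows. In Ogn its matches on the 2 strands overlap and lie over 220 bases before the start. GGAATG and TGTGGT were each found in Ogn only among the 6 members, and in 12.6% and 14.0% of all windows. TGANTCA was found in no member's window and in 6.75% of all. The windows of Bgn and Omd held none of the 5 motifs. These matches describe letters in 1 window and do not show that a factor binds there.

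Among other genes of the same superfamily, Podn was called lower at 7 days. Of 10 further genes (Ecm2, Epyc, Kera, Optc, Chad, Chadl, Nyx, Tsku, Podn and Podnl1) 3 were tested. At 7 days the called gene was Podn, which encodes podocan of class V, and 0 were called higher, with a median log2 change of 0.05. Of all tested genes 2.27% were called lower and 13.2% higher, with a median log2 change of 0.14. Podn was at 4.24 and 4.97 RPKM in the 7 day libraries, against 6.92 and 11.97 RPKM in the controls, a log2 change of -0.92 (limma adjusted p = 0.0384). Without control replicate 2 the change was -0.54 and no longer called, and the call was also lost without 7 day replicate 1 or 7 day replicate 2, the highest adjusted p being 0.158. It was also lost without the filter on low values. Tsku, which encodes tsukushi, was not called (log2 change 0.86; limma adjusted p = 0.0598). At 28 days none of the 3 was called against the controls or against 7 days, where 4.41% and 4.67% of all tested genes were called.

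Enzymes that build the glycosaminoglycan chains carried by decorin and biglycan were partly higher at 7 days. Of 25 genes of chondroitin and dermatan sulfate synthesis 18 were tested, and 6 were called higher and 0 lower, with a median log2 change of 0.49 against 0.14 for all genes, of which 13.2% were called higher. The count was 2 with median ratio scaling, with quantile normalization, without a filter and with a filter at a mean RPKM of 5. Chpf, a subunit of chondroitin polymerase, was at 8.88 and 9.99 RPKM in the 7 day libraries, against 3.69 and 4.81 RPKM in the controls (log2 change 1.07; limma adjusted p = 0.00483). Dse, the epimerase that turns chondroitin into dermatan sulfate, Chsy1, a chondroitin synthase, and Ugdh, which makes UDP-glucuronate, had log2 changes of 0.84, 0.76 and 0.76. Without single libraries the number of these enzymes called ranged from 0 to 7, and each of the 4 named lost its call in at least 1 such fit. None of the 18 was called at 28 days against the controls or against 7 days. In these comparisons 4.41% and 4.67% of all tested genes were called, so none of 18 is near the share of all genes. Of 6 tested genes of keratan sulfate synthesis 1 was called higher at 7 days, B4galt1, a galactosyltransferase that acts on many glycoproteins, and it was also called at 28 days. B4galt1 was at 27.1 and 28.9 RPKM at 7 days and at 26.0 and 23.1 RPKM at 28 days, against 15.7 and 17.4 RPKM in the controls. Of the fits without 1 library, its call at 28 days was kept in that without 28 day replicate 2 alone, and that at 7 days was lost without control replicate 1 or 7 day replicate 2.

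The matrix partners that small leucine-rich proteoglycans bind were higher at 7 days. Of 15 collagens and matrix genes 14 were tested, 13 were called higher at 7 days and 10 of them lower at 28 than at 7 days. The shares of all tested genes so called were 13.2% and 4.26%. The median log2 changes were 1.98 and -1.29, against 0.14 and -0.12 for all tested genes. Fn1, which encodes fibronectin, was at 21.1 and 28.8 RPKM in the 7 day libraries, against 4.09 and 4.70 RPKM in the controls, a log2 change of 2.37. Col3a1, Col1a1 and Thbs1, which encodes the TGF-beta activator thrombospondin 1, had log2 changes of 2.60, 2.53 and 2.82 at 7 days. At 28 days Thbs1 alone was called higher than in controls, at 2.11 (limma adjusted p = 0.0313), a call that ended when any control or 7 day library was left out. Of all tested genes 2.87% were called higher at 28 days. Fn1, Col3a1 and Col1a2 remained called lower at 28 than at 7 days in every fit without 1 library. Col1a1, at -1.82, lost that call without 7 day replicate 2 (limma adjusted p = 0.0767), and the number of partners called there ranged from 4 to 12.

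Some proteases that act on the family or with it were also higher at 7 days. Of 14 genes 8 were tested and 5 were called higher at 7 days, against 13.2% of all tested genes, 3 higher at 28 days and 3 lower at 28 than at 7 days. For the last 2 counts the shares of all tested genes were 2.87% and 4.26%. Mmp14, a membrane-bound matrix metalloproteinase, had log2 changes of 2.38 at 7 days and 1.19 at 28 days. It was at 15.5 and 17.4 RPKM in the 7 day libraries and at 7.25 and 6.65 RPKM in the 28 day libraries, against 2.78 and 2.74 RPKM in the controls. Pcolce, an enhancer of the protease BMP1, which matures procollagen and biglycan, had log2 changes of 1.48 and 0.78 at 7 and 28 days. Mmp2, a gelatinase, had one of 1.30 at 7 days and of 0.10 at 28 days (limma adjusted p = 0.614). Mmp3, a stromelysin, had one of 2.06 at 7 days, lost without control replicate 1 or 7 day replicate 2. Htra1 and Adamts5, which can cleave proteoglycans, were not called at 7 days, with log2 changes of 0.05 and 0.12 (limma adjusted p = 0.857 and 0.752). At 28 days Adamts1, a metalloproteinase with thrombospondin repeats, was called at 2.16, with 44.2 and 15.4 RPKM in the 28 day libraries, a call that ended in the same 4 cases as that of Thbs1. At 28 days against control, Mmp14 was not called without control replicate 1 (limma adjusted p = 0.0602), nor was Pcolce without either control. At 28 against 7 days the calls of Mmp2, Mmp14 and Pcolce were kept in 6, 5 and 1 of 6 fits without 1 library.

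Receptors and growth factors tied to the family were partly higher at 7 days. Of 24 genes 18 were tested and 9 were called higher at 7 days, against 13.2% of all tested genes, 3 at 28 days, and 1 was lower at 28 than at 7 days. Beside the last 2 counts, 2.87% and 4.26% of all tested genes were so called. With median ratio scaling and with quantile normalization the 7 day count was 5, and 0 were called at 28 against 7 days. Without a filter on low values the count at 28 days against control was 0. Tgfb1, Tgfb2 and Tgfb3, the ligands that decorin and biglycan can bind, had log2 changes of 1.04, 1.09 and 1.05 at 7 days, and in the 6 fits without 1 library their calls were kept in 6, 4 and 4. At 28 days Tgfb2 had a log2 change of 1.36, Tgfb1 of 0.65 and Kdr, a receptor for vascular endothelial growth factor that decorin can bind, of 0.67. Of 6 fits without 1 library, these calls were kept in 4 for Tgfb2, 1 for Tgfb1 and 3 for Kdr, and each was lost without either control. Tlr2 and Tlr4, which recognise soluble biglycan, had log2 changes of 0.43 and 0.29 at 7 days that did not pass (limma adjusted p = 0.123 and 0.289). Cd44, a hyaluronan receptor through which biglycan can act, had one of 1.06 at 7 days, and lost its call without control replicate 1 or 7 day replicate 2. Cd14, a co-receptor of both Toll-like receptors, was lower at 28 than at 7 days, at -0.91 (limma adjusted p = 0.0266), a call kept in 2 of 6 fits without 1 library. Cd14 is also counted among the macrophage markers below, and Kdr among the endothelial markers. Without single libraries the number of these 18 genes called at 7 days ranged from 2 to 10.

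Several markers of fibroblasts and macrophages moved with the members. Of 10 fibroblast markers 6 were called higher at 7 days and 6 lower at 28 than at 7 days. Of all tested genes 13.2% and 4.26% were so called. The 10 together had 873 to 889 RPKM at 7 days, against 673 to 709 RPKM in the controls, and 640.3 to 743 RPKM at 28 days, which spans the controls. Gsn, the most abundant of them, was not called and lay lower at 7 days, at 429 and 384 RPKM, against 489 and 508 RPKM in the controls (log2 change -0.30; limma adjusted p = 0.235). Without Gsn the other 9 had 460 to 488 RPKM at 7 days, against 184 to 201 RPKM in the controls, and 239 to 270 RPKM at 28 days. Vim was the largest part of this smaller sum, at 210 and 250 RPKM at 7 days, against 77.9 and 89.1 RPKM in the controls. Pdgfra, Tcf21 and Ddr2, which mark resident cardiac fibroblasts, had log2 changes of 0.25, 0.11 and 0.27 at 7 days that did not pass, while Mfap5, Vim, Pi16 and Cd248 had changes of 1.92, 1.45, 1.41 and 1.29. Of 8 macrophage markers 7 were called higher at 7 days and 7 lower at 28 than at 7 days, with 281 to 325 RPKM in all at 7 days, against 157 to 168 RPKM in the controls. In the same comparisons 2 and 0 of 8 smooth muscle and pericyte markers were called, and 3 and 0 of 8 endothelial markers. Up to 4 called markers of each list, those of largest change, were followed in the fits without 1 library. At 7 days Mfap5, Vim, Pi16, Cd248, Cx3cr1 and Kdr kept their calls. Emr1, Cd68, C1qb, Tagln, Acta2, Emcn and Pecam1 each lost theirs in at least 1 such fit. So did all those followed at 28 against 7 days, which were Cd248, Mfap5, Vim, Thy1, Cx3cr1, Emr1, C1qb and Cd68. The part of these markers in the members' changes was not tested. Of 8 cartilage and bone genes, where several members were first studied, Comp alone was tested, and it was called higher at 7 days, at 7.25 and 10.5 RPKM in the 7 day libraries against 1.16 and 1.71 RPKM in the controls. The defining genes Ibsp and Bglap were at 0 in all libraries, and Acan and Col2a1 reached at most 0.174 and 0.0552 RPKM. Of 5 mesothelial markers 3 were tested, and Wt1 was called higher at 7 days. The other tested ones, Msln and Upk3b, had log2 changes of -0.26 and -0.71 that did not pass. Of 5 tendon and valve markers Scx alone was tested, and it was called higher at 7 and at 28 days. In the 6 fits without 1 library the call of Wt1 was kept in 2, that of Scx at 7 days in 4 and that of Scx at 28 days in 5.

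Within the family, Lum and Aspn were the most alike across the 6 libraries. The Euclidean distance between their centred log2 profiles was 0.39, and that between Fmod and Aspn was 0.47. Bgn and Ogn were the least alike, at 2.41. The genes outside the family nearest to the mean profile of the 7 tested members were Dab2, Pld4, Antxr1, Tpm3, Olfml3, Bin1, Cd34 and Tmem176b, at distances of 0.11 to 0.20 over 6 libraries, against a median of 1.06 over all other tested genes. Dab2, an endocytic adaptor, had 12.8 and 13.7 RPKM in the 7 day libraries, against 6.46 and 7.05 RPKM in the controls. Antxr1, a cell surface receptor that binds collagen, had log2 changes of 1.02 at 7 days and 0.14 at 28 days. The 6 points fall in 3 groups of libraries shared by all genes, so these distances are a description.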

How the data were processed

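Per the file headers, the values that the authors deposited are RPKM per gene and library. The submitters' processing notes list HTSeq, TopHat2 2.0.12, DESeq2 and Bowtie 0.12.9, with builds mm8 and mm9, without roles. Which of them gave the RPKM, and on which annotation, is not given in the sources used here. Values were log2 transformed after adding 0.5, and all 6 libraries were fitted together in limma 3.58.1 (R 4.3.3) with group means and a mean-variance trend, with 3 residual and 4.21 prior degrees of freedom and Benjamini-Hochberg adjustment over 11096 genes. The fit was checked on simulated data. Relative depth came from the most common ratio of RPKM values under 0.3 between libraries. RPKM hold no read totals, so counting intervals were not given.

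The members, gene lists and tests were chosen with earlier results of these data known. Named genes were all members, up to 4 called genes of each list with the largest change, and the 8 genes of most like profile. Other genes were named to describe a list or a genome neighbour. Emr1 was read for Adgre1. Replicate numbers were not taken as pairs, since deviations of same-numbered libraries correlated at 0.15, -0.02 and -0.01 between groups. Each library was left out in turn, which assumes that the remaining sample of that group varies as the other groups do. Other alternatives were quantile normalization, median ratio scaling, a pseudocount of 1 or 0.1, a filter at a mean RPKM of 5 or none, a fit without the trend or on just 2 groups, a replicate block, and calls by unadjusted p under 0.05 with a fold over 2 (1.5 at 28 days against control). Python 3.11.15, numpy 2.4.6, pandas 2.3.3 and matplotlib 3.10.9 were used.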

Additional observations from a re-analysis of the deposited data

Results flagged for a closer look

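The level differed between 28 and 7 days of Ang II in 5 members, by a limma test of the difference itself. With controls at 0 days alone, a changed effect of Ang II cannot be told apart from age or time. The log2 change at 28 days minus that at 7 days was -1.23 for Bgn, -1.01 for Lum, -1.46 for Fmod, -1.27 for Aspn and -0.64 for Prelp. The difference of Prelp was lost in every fit that left out 1 library. With 2 libraries a group, no test for a single library far from the others was possible.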

How the results depend on the processing

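At 7 days the count of called members was 5, and 4 or 5 under every alternative, with 4 to 5 when libraries were left out; no member's change at 7 days changed sign. At 28 days against control the count of 2 was 0 without a filter on low values, 1 after quantile normalization, where Ogn was left, and 1 without a trend, where Bgn was left, and it was 0 to 2 when libraries were left out. At 28 against 7 days the count of 5 was 4 or 5 in all alternatives with every library. With libraries left out the called members changed. Prelp was lost in every such fit, and Aspn alone was called without 7 day replicate 2. Dcn, not among the 5, was called without 28 day replicate 1. With the replicate block the counts were 5, 2 and 4, and the 1 call lost was that of Prelp at 28 against 7 days. Changes at 28 days against control that turned sign had no call before or after. With libraries left out, Dcn ranged from -0.35 to 0.17, Fmod from -0.10 to 0.11 and Aspn from -0.051 to 0.047, and Fmod was -0.0056 after median ratio scaling. Of the 333 log2 changes recomputed, 296 kept direction and call, 30 lost a call, 1 gained one and 6 changed sign, and the cause was not tested.

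Over all genes, 1713 calls at 7 days became 445 with the unadjusted p and fold rule and 405 to 2298 with libraries left out. At 28 days 489 became 61 without a filter, 264 with only the 2 groups, 808 with the fold rule and 33 to 447 with libraries left out. At 28 against 7 days 518 became 264 without a filter, 295 at a mean RPKM of 5, 276 and 265 after median ratio scaling and quantile normalization, 333 with only the 2 groups, 277 with the fold rule and 27 to 731 with libraries left out. Precision is limited by 2 libraries a group, and for Omd and Fmod by low levels.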

Other observations

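Several genes tied to the family stayed under the mean RPKM needed for testing, and are given as values chosen after they were seen. Adamts4, a protease that cleaves proteoglycan core proteins, was at 1.23 and 1.35 RPKM in the 7 day libraries, against 0.0642 and 0.0408 RPKM in the controls, and at 0.195 and 0.168 RPKM at 28 days. Col12a1, a collagen of fibril surfaces, was at 0.898 and 0.999 RPKM at 7 days, against 0.0849 and 0.0995 RPKM in the controls. Tnf, which encodes the cytokine tumour necrosis factor, was at 0.598 and 0.227 RPKM at 7 days and listed at 0 in the other 4 libraries. Epyc, which encodes epiphycan of class III, was at 1.07 and 0.296 RPKM at 7 days, against 0.193 and 0.414 RPKM in the controls, which overlap.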
